A study of Mus musculus with 7 samples.

Results

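The 10 genes described here encode fibulins, fibronectin and matricellular proteins of the extracellular matrix. They are *Fbln1*, *Fbln2*, *Fbln5*, *Efemp2*, *Fn1*, *Tnc*, *Postn*, *Sparc*, *Thbs1* and *Thbs2*, out of 21938 protein-coding genes that GENCODE lists on chromosomes 1 to 19, X and Y of GRCm38. They were chosen by name and not by any measured value, but with earlier results of these data known. The mark measured was H3K27-Ac, acetylation of lysine 27 of histone H3, by ChIP-seq, in which an antibody brings down the DNA wrapped around histones that carry the mark. Promoters and enhancers in use carry it. For each gene the peaks at its promoter (within 1 kb of an annotated transcription start), in its body (overlapping the gene but not at a start), and in the 100 kb on either side of it (distal) were read from the peak list of each cell clone, with the domain formed by joining peaks up to 12.5 kb apart.

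The cells were 3 clones grown from 3 different skin tumours of mice on an FVB/129P2 backcross background, all homozygous for loss of *Cdkn2ab*, the locus of the p15 and p16 inhibitors of the cell cycle and of p19 ARF. Each clone was picked as a colony from soft agar, so that it stands for tumour cells able to grow without attachment. After picking, the clones were kept attached in culture for the later experiments. There was 1 condition and no untreated or wild-type group, and the labels give no age of the mice. The peak list of clones 1 and 2 rests on 1 H3K27-Ac library each and that of clone 3 on 2 pooled libraries, and 3 IgG libraries of clones 1 and 3 are control samples.

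Fibulins are secreted glycoproteins that hold elastic fibres and basement membranes together. *Fbln5* and *Efemp2* (fibulin-4) are needed for elastic fibres to form, and *Fbln1* and *Fbln2* bind fibronectin, which cells assemble into fibrils and grip through integrins. Matricellular proteins sit in the matrix without building it and change how cells attach: tenascin-C (*Tnc*) and periostin (*Postn*) are made in healing wounds and in tumour stroma, SPARC binds collagen, and the thrombospondins *Thbs1* and *Thbs2* restrain the growth of vessels. In skin, dermal fibroblasts are the main source of most of these proteins.

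The promoter sequences below show how differently these genes begin. Each runs from 250 bases before a RefSeq start to 50 bases after it, on the strand of the gene and on GRCm38, and capitals mark the motif matches discussed further on (the GC box is GGGCGG and the TATA box is TATAAA, beside the CCAAT box; AP-1 sites are TGANTCA, TEAD sites are GGAATG, the SMAD site is GTCTAGAC, and the E-box of ZEB and SNAI factors is CACCTG, each searched on both strands, with matches that overlap shown as 1 stretch). *Fbln1*, *Efemp2*, *Sparc* and *Thbs2* had a promoter peak in every clone, and *Tnc* and *Postn* did not. Of *Postn* 2 starts are shown, since the clones differed in which of them lay next to a peak.
Fbln1 promoter, chr15:85205758-85206057, plus strand: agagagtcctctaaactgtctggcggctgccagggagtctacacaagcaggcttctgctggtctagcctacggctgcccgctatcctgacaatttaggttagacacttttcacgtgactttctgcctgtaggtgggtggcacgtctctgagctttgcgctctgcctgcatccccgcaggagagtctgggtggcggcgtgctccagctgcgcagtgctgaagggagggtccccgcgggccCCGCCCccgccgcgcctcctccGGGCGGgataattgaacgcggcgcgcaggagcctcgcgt
Efemp2 promoter, chr19:5474440-5474739, plus strand: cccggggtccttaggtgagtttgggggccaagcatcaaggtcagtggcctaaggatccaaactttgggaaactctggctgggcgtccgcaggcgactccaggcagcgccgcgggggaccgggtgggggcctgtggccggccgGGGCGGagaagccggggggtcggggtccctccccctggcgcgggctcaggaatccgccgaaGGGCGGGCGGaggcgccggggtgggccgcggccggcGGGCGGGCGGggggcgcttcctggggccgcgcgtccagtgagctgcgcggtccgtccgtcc
Sparc promoter, chr11:55420031-55420330, minus strand: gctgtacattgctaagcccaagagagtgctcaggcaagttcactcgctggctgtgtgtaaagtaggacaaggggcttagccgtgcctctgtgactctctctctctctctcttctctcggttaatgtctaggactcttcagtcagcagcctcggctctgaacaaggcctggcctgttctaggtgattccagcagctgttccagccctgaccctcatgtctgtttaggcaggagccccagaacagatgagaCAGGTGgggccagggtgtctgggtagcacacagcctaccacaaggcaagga
Thbs2 promoter, chr17:14694213-14694512, minus strand: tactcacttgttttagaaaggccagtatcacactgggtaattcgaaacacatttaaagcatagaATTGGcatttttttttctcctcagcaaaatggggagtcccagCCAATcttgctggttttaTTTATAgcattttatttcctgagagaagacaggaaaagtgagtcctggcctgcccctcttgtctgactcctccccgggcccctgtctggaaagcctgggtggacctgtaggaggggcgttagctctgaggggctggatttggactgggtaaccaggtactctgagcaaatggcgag
Tnc promoter, chr4:64046887-64047186, minus strand: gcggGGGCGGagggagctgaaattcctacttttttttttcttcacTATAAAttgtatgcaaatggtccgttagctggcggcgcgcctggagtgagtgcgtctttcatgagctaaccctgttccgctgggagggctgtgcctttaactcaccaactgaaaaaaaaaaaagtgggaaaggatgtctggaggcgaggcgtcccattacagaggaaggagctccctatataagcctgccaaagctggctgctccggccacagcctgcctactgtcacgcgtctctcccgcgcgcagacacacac
Postn promoter, first start, chr3:54359017-54359316, plus strand: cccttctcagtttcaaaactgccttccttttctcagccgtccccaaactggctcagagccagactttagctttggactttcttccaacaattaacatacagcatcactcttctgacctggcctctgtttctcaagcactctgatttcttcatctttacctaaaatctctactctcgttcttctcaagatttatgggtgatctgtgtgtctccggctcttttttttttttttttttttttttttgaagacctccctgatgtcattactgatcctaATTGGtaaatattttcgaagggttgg
Postn promoter, second start, chr3:54360857-54361156, plus strand: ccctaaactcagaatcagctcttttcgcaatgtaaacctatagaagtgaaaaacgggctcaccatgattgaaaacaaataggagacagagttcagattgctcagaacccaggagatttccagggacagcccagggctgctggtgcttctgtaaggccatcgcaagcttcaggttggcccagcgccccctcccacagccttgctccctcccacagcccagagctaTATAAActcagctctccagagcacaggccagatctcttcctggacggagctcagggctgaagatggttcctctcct

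The *Efemp2* sequence is rich in CpG, with 35 CpG dinucleotides and an observed to expected ratio of 0.842, which is above that of 82.6% of 32817 RefSeq promoters of the same length. The *Sparc* sequence holds 4 CpG with a ratio of 0.174, and that of *Thbs2* 4 with a ratio of 0.230. *Fbln1* lies nearer to *Efemp2*, with 24 CpG and a ratio of 0.781. A peak within 1 kb of a start was therefore found in every clone for CpG-rich and for CpG-poor sequences. The peaks did not always cover the printed bases. In clones 1, 2 and 3 they covered 300, 300 and 276 bases of *Efemp2* and 12, 294 and 0 of *Fbln1*. They covered 300, 300 and 0 bases of *Sparc* and 0, 80 and 183 of *Thbs2*.

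Outside promoters, 3 regions are printed. Those of *Fbln2* lay under peaks of every clone and held the most reads of such regions, and the window of *Sparc*, under peaks of clones 1 and 2, holds a rare motif. The 300 bases around the summit are given on the plus strand, and capitals again mark motif matches.
Fbln2, 47.9 kb inside the gene, chr6:91260200-91260499: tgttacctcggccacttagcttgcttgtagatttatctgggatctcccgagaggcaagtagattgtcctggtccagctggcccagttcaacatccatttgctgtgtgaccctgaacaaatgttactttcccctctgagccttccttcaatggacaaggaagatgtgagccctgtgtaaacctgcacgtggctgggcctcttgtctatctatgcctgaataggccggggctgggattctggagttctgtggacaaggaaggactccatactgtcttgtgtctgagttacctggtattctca
Fbln2, upstream, chr6:91202346-91202645: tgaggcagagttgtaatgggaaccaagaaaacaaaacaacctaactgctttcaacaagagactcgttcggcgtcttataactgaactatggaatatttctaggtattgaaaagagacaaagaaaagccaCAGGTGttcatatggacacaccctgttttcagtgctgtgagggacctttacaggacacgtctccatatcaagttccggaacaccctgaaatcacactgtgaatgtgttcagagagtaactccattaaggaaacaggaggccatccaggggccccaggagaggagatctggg
Sparc, 5.76 kb inside the gene, chr11:55414173-55414472: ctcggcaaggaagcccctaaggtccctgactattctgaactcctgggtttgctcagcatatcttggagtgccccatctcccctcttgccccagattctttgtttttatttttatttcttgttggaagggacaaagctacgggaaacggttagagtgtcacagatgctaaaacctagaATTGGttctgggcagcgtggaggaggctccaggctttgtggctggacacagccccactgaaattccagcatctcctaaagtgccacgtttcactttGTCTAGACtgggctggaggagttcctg

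Clones 1, 2 and 3 had 29182, 49587 and 29277 peaks, at estimated depths of 13.3, 13.7 and 35.8 M ChIP reads. Clone 2 stands apart from the others, since 49.1% of its peaks overlapped a peak of another clone, against 89.5% for clone 1 and 80.9% for clone 3. The number of ChIP reads at each summit was recovered from the fold enrichment and p-value in the lists. The lowest peak held 13, 12 and 25 reads in clones 1, 2 and 3, so a site called absent may lie under these limits, and absence of a peak is not absence of the mark. To compare clones, reads were divided by 0.811, 1.85 and 0.676 for clones 1, 2 and 3, the median ratios over 9002 sets of promoter peaks found in every clone. These are called scaled reads. Divided in the same way, the lowest peak of clone 2 is the weakest and that of clone 3 the strongest. Weak peaks of clone 2 could thus go uncalled in the other clones. The clones are the only replicates, and intervals at single values are exact Poisson 95% intervals that cover counting error only.

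Nearly all the genes carried the mark at their promoters. A promoter peak was present for 9 of the 10 genes in clone 1, where 49.8% of all protein-coding genes had one, for 10 in clone 2 (56.9% of all genes) and for 8 in clone 3 (48.1%). In all 3 clones 8 of the 10 had one, namely *Fbln1*, *Fbln2*, *Fbln5*, *Efemp2*, *Fn1*, *Sparc*, *Thbs1* and *Thbs2*, beside 46.5% of all genes. None of the 10 lacked a promoter peak in every clone, while 42.6% of all genes did. The count in all clones fell to 3 (*Fbln5*, *Efemp2* and *Fn1*) when the peak had to cover a start base itself, beside 39.1% of all genes.

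**Figure D1:**
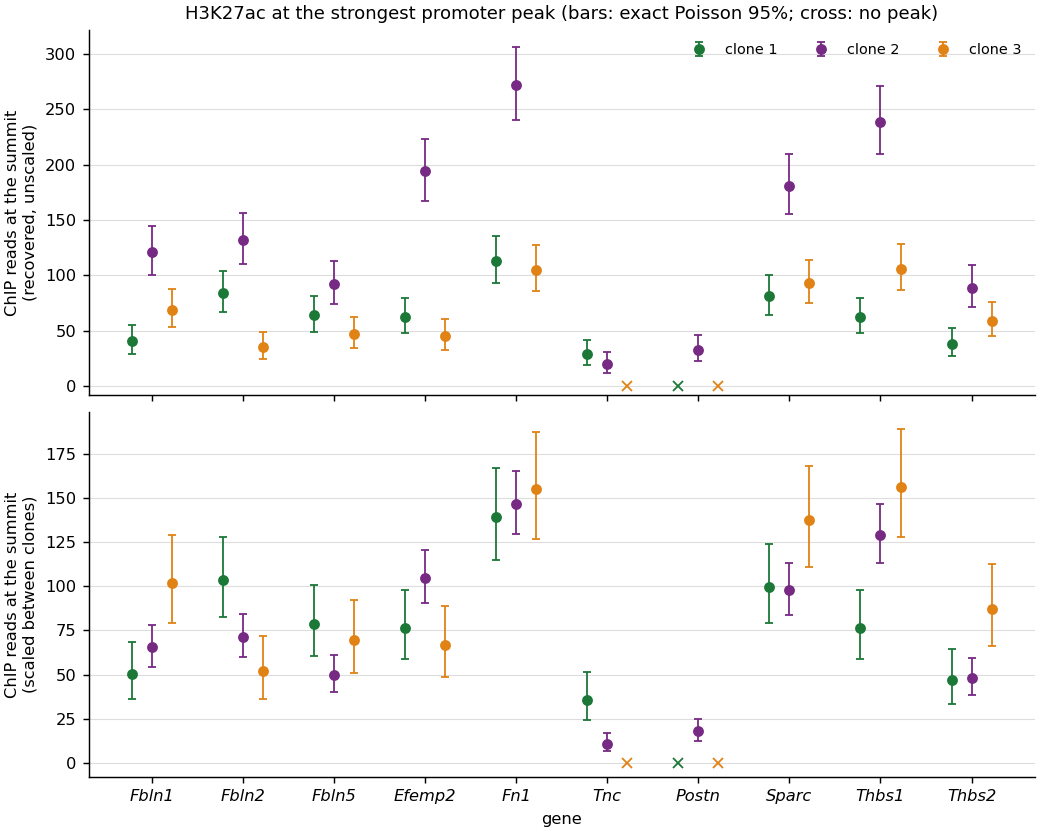
ChIP reads at the summit of the strongest promoter peak of each gene (y axis, reads; upper panel as recovered, lower panel scaled between clones) for clones 1, 2 and 3, with exact Poisson 95% intervals and a cross where a clone had no peak. Clone 2 is highest in the upper panel for the 8 genes with a peak in every clone, and for *Efemp2* only in the lower panel.

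*Fbln1* (ENSMUSG00000006369.14, chr15:85205949-85286535, plus strand) is the fibulin gene in the chromosome 15 interval that the study examined. Its promoter peak held 41 ChIP reads in clone 1, 121 in clone 2 and 69 in clone 3. The summits lay 297, 267 and 346 bp after the start, in an intron. Scaled, the reads were 72.6 ± 26.5 (SD, n = 3 clones), with clone 3 at 102 and clone 1 at 50.6, and the counting intervals of these clones did not meet. Within its own list the peak was of low to middling strength, above 12.9%, 25.3% and 35.4% of the genes that had a promoter peak in clones 1, 2 and 3.

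*Fbln2* (ENSMUSG00000064080.12, chr6:91212455-91272540, plus strand) ran the other way. Its promoter peak held 84, 132 and 35 ChIP reads in clones 1, 2 and 3, and the scaled reads were highest in clone 1 (104) and lowest in clone 3 (51.8), a ratio of 2.00 between clones whose counting intervals did not meet. In clone 3 the peak was only 331 bp wide with its summit 1066 bp after the start, in an intron, and it stood above 2.11% of the promoter peaks of that list. The wider peaks of clones 1 and 2 had their summits at 608 and 591 bp.

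*Fbln5* (ENSMUSG00000021186.9, chr12:101746565-101819055, minus strand) had 64, 92 and 47 ChIP reads at its promoter in clones 1, 2 and 3, with summits 224, 242 and 235 bp after the start, in an untranslated exon. Scaled reads were 66.0 ± 14.9 (SD, n = 3 clones), and the intervals of the highest and lowest clone overlapped. Fold enrichment gave another picture: scaled between clones it was 4.58, 2.98 and 13.8, a ratio of 4.65 with clone 3 highest. In the lists of clones 1 and 2 the background at the summit was 5 control reads, while in clone 3 it was at its genome-wide floor. The equal control values in clones 1 and 2 are not independent where those lists share control reads.

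*Efemp2* (ENSMUSG00000024909.15, chr19:5473954-5482517, plus strand), the shortest gene of the set at 8.56 kb, had 62, 194 and 45 ChIP reads at its promoter in clones 1, 2 and 3. It was the only gene whose scaled reads were highest in clone 2, at 105 against 66.5 in clone 3, with intervals that did not meet. In clone 3 the promoter carried 2 separate peaks, of 43 and 45 reads, on either side of the start, where the other clones had 1 wide peak. Summing over promoter peaks put clone 3 highest instead, so the order of clones at this gene depends on how a split peak is counted.

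Fibronectin varied least under this scaling and by fold enrichment, though not with reads scaled by the estimated totals (a ratio of 6.78). *Fn1* (ENSMUSG00000026193.15, chr1:71585520-71653200, minus strand) held 113, 272 and 105 ChIP reads at its promoter in clones 1, 2 and 3, and scaled reads were 139, 147 and 155, or 147 ± 7.95 (SD, n = 3 clones). These values were the highest of the 10 genes on average, and the peak stood above 59.0%, 67.1% and 69.2% of promoter peaks in the 3 lists. The ratio of the highest to the lowest clone was 1.11, and only 7.82% of the 9002 peak sets had a smaller one. The summits lay at 229 and 327 bp in clones 1 and 2 but at -698 bp in clone 3. The reads compared thus come from different places, on either side of the start. A start of *Apol7d*, another gene, also lies within 1 kb of this region.

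The promoter peaks of *Tnc* and *Postn* were weak or absent. For *Tnc* (ENSMUSG00000028364.15, chr4:63959785-64047015, minus strand) the promoter peak held 29 ChIP reads in clone 1 and 20 in clone 2, and clone 3 had none. Scaled, these were 35.8 and 10.8 reads, both under the lowest peak of clone 3 when it is scaled too. The peaks were 367 and 251 bp wide, and they stood above 5.90% and 1.48% of promoter peaks in their lists. For *Postn* (ENSMUSG00000027750.16, chr3:54361109-54391037, plus strand) a promoter peak of 33 ChIP reads was called in clone 2 only, 275 bp wide and covering the start. Scaled, it held 17.8 reads, likewise under the scaled lowest peak of clone 3. Clones 1 and 3 had instead a peak further upstream, with 30 and 57 reads. That of clone 3, chr3:54358648-54359266, ends 1 base before a RefSeq start at position 54359267, and that of clone 1 lies within its bounds. This start is not among the GENCODE starts used, the nearest of them being 1842 bp away. With RefSeq starts added, an alternative chosen after the values were seen, *Postn* had a promoter peak in every clone and the count rose to 9 of 10, beside 46.6% of all genes. The peak of clone 2 lay at one start, however, and those of clones 1 and 3 next to the other. Which start is transcribed was not measured. In the sequences above, the second start has a TATA box 26 bases before it, and the first has none.

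*Sparc* (ENSMUSG00000018593.13, chr11:55394500-55423183, minus strand) had 81, 181 and 93 ChIP reads at its strongest promoter peak in clones 1, 2 and 3. Scaled reads were 112 ± 22.4 (SD, n = 3 clones), with overlapping intervals between the highest and lowest clone. The mark spread into an intron, and the summit of the strongest promoter peak lay 1390 bp after the start in clone 1, 441 bp in clone 2 and 2115 bp in clone 3. In clone 2 a further peak with 183 reads and its summit at 1976 bp counts as a body peak, since it begins over 1 kb from any start. A second promoter, upstream of the first, carried a peak of 44, 27 and 30 reads in clones 1, 2 and 3. The summit of clone 1 there lay 5.35 kb before the main start, and at that place clone 2 had a further peak, of 94 reads, that begins over 1 kb from a start and counts as distal.

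The thrombospondins were both highest in clone 3 after scaling. *Thbs1* (ENSMUSG00000040152.8, chr2:118111876-118127133, plus strand) held 62, 239 and 106 ChIP reads, or 76.4, 129 and 157 scaled reads, in clones 1, 2 and 3. The ratio of highest to lowest was 2.05, and 90.0% of the 9002 peak sets had a smaller one. Clone 3 carried 4 separate promoter peaks here, of 106, 32, 27 and 50 reads, where clones 1 and 2 had 1 wide peak at the start. Summed over promoter peaks the ratio was 4.00 with clone 3 highest. This sum counts a split stretch more than once, so it cannot decide the order of clones. *Thbs2* (ENSMUSG00000023885.9, chr17:14665500-14694235, minus strand) held 38, 89 and 59 reads, or 46.9, 48.1 and 87.2 scaled reads, and was thus about equal in clones 1 and 2. At both genes the intervals of the highest and lowest clone did not meet. At *Thbs1* the strongest promoter peak of clone 3 lay wholly upstream, with its summit at -1836 bp. Those of clones 1 and 2 covered the start, with summits at -350 and -1223 bp, so the reads compared come from different places. The peak of clone 3 with its summit at 217 bp held 32 reads. A start of the non-coding gene *Gm13986* lies within 1 kb of the region.

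How far promoter reads of the set differed between clones, beside other genes, depended on the scaling. In scaled reads the ratio of the highest to the lowest clone had a median of 1.73 over the 8 genes with a peak in every clone, from 1.11 at *Fn1* to 2.05 at *Thbs1*, beside a median of 1.38 over the 9002 peak sets. Scaled by the estimated totals the comparison turned, with a median of 5.51 over the 8 genes beside 7.23. The widest ratio was then that of *Efemp2* (11.3), and by fold enrichment that of *Fbln5*. Counting intervals of the highest and lowest clone lay apart for 5 of the 8 (*Fbln1*, *Fbln2*, *Efemp2*, *Thbs1* and *Thbs2*) and for 41.3% of 10209 genes with a peak in every clone. The scaled reads were highest in clone 3 for 5 of the 8, in clone 1 for 2 and in clone 2 for 1. This order belongs to the scaling: with unscaled reads, or with reads scaled by the estimated totals, clone 2 was highest for 8 of 8. The set is small and was named for its function, and no test was made.

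In the gene bodies the clones parted most. Body peaks numbered 8, 61 and 11 in clones 1, 2 and 3, or 26.7 ± 29.8 (SD, n = 3 clones), beside 10612, 24514 and 10074 over all genes, so that clone 2 had the most in general. They lay in 3 of the 10 genes in clone 1 (15.1% of all genes had one), in 8 in clone 2 (27.2%) and in 5 in clone 3 (16.5%), and in all clones in 3, *Fbln2*, *Fbln5* and *Sparc* (10.9%). Cut to as many peaks as the shortest list holds, clone 2 kept 24 body peaks, beside 8 and 11 in the others. In scaled reads peaks were called down to a lower value in clone 2, and the part of this in the counts was not tested. Summits of body peaks lay in introns for 8 of 8 in clone 1 and 11 of 11 in clone 3, and in clone 2 for 46 of 61, with 14 in coding exons.

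**Figure D2:**
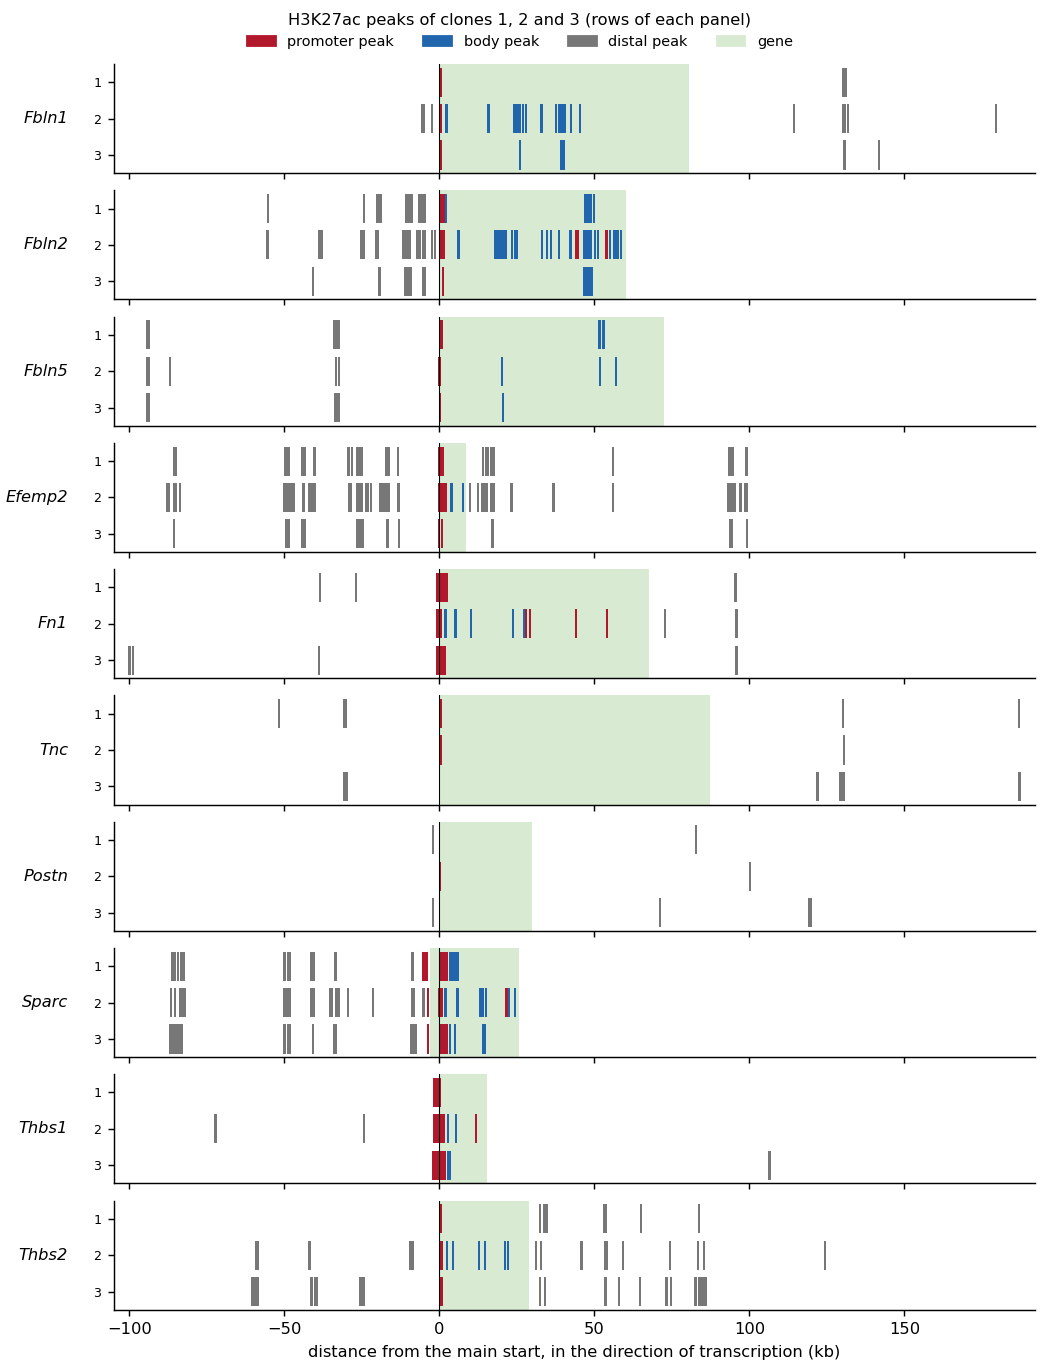
Positions of H3K27-Ac peaks along each gene and the 100 kb on either side, as distance from its main start in kb (x axis, positive in the direction of transcription), with 1 row per clone and colours for promoter, body and distal peaks; peaks narrower than 0.7 kb are drawn 0.7 kb wide. The bodies of *Fbln1* and *Fbln2* hold many peaks in clone 2 (13 and 23) and few in clones 1 (0 and 3) and 3 (3 and 1).

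*Fbln1* and *Fbln2* held most of the body peaks of clone 2. *Fbln1* had 0, 13 and 3 body peaks in clones 1, 2 and 3, and in clone 2 only 1.80% of all genes had as many or more. The strongest of them, at chr15:85229654-85232192 with its summit 24.7 kb after the start, held 110 ChIP reads in clone 2. A peak of 39 reads overlapped the same region in clone 3, and clone 1 had none there. The other intronic pair shared by clones 2 and 3, 39.2 and 39.9 kb after the start, held 60 and 95 reads in clone 2 and 41 and 55 in clone 3. So 3 of the 13 regions were found in a second clone, and 0 in clone 1.

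*Fbln2* had 3, 23 and 1 body peaks in clones 1, 2 and 3. A single intronic region 47.9 kb after the start, chr6:91258708-91261930, printed above, was common to them, with 112, 202 and 210 ChIP reads. It exceeded the reads of the gene's own promoter in every clone. Scaled, it held 138, 109 and 311 reads, or 186 ± 109 (SD, n = 3 clones). The remaining body peaks of clone 2 were weak, with a median of 22 reads over its 23 peaks, and 1 of the 23 overlapped a peak of another clone.

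For the other genes body peaks were few. *Sparc* had 3, 7 and 4 in clones 1, 2 and 3, and an intronic peak of clone 1 with its summit 5.76 kb after the start, chr11:55413705-55415643, held 51 ChIP reads. It overlapped a peak of clone 2 with 31 reads and one of clone 3 with 32, which did not overlap each other. *Fbln5* had 2, 3 and 1, but no single region was common to the 3 clones: one at 51.8 kb was found in clones 1 and 2 and one at 20.2 kb in clones 2 and 3. *Fn1*, *Thbs2* and *Efemp2* had 5, 6 and 2 body peaks in clone 2 and 0 in the others, and *Thbs1* 2 each in clones 2 and 3. *Tnc*, at 87.2 kb the longest gene of the set, and *Postn* had 0 in every clone.

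**Figure D3:**
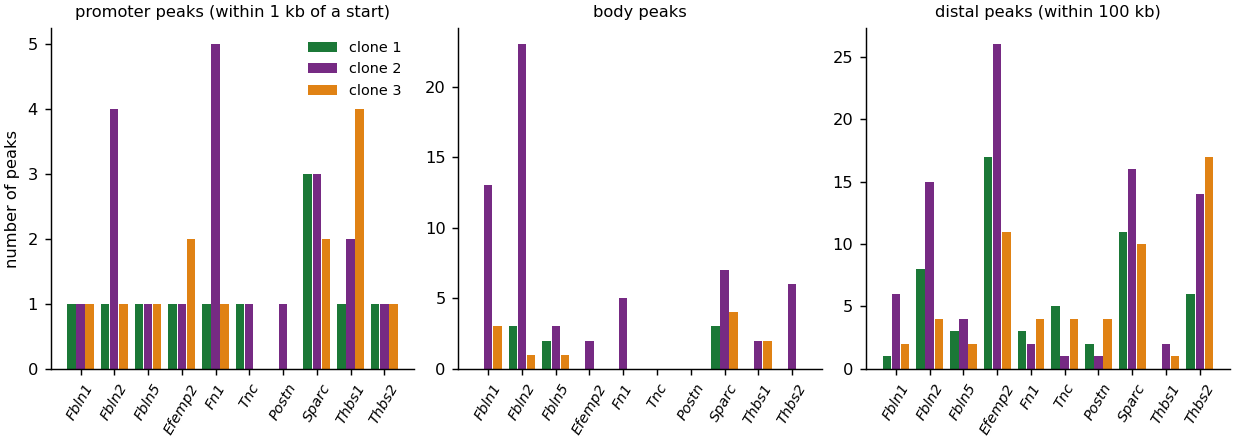
Number of promoter, body and distal peaks (y axes) of each gene in clones 1, 2 and 3. Clone 2 has the most body peaks (61 in all, against 8 and 11), while distal peaks are spread more evenly (56, 87 and 59).

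Within clone 2 a further 10 regions counted as promoter peaks without a partner in the other clones. At *Fn1* 4 and at *Fbln2* 3 of them, with 17 to 37 ChIP reads, lay well inside the gene at starts of transcripts outside the GENCODE basic set, and *Sparc* and *Thbs1* had 1 each of this kind, with 21 and 20 reads. The remaining one is the *Postn* start. In scaled reads the lowest peak of clone 2 lies under those of the other clones, so these regions may have gone uncalled there. Of the 20 promoter regions of the set, 9 were peaked in all clones.

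Distal peaks were common, as they were for most genes. They numbered 56, 87 and 59 in clones 1, 2 and 3, of which 18, 26 and 16 lay within 1 kb of a start of another gene. At least 1 distal peak was present for 9 of the 10 genes in clone 1 (75.6% of all genes), 10 in clone 2 (80.2%), 10 in clone 3 (77.3%) and 9 in every clone (73.2%), the exception being *Thbs1* in clone 1. *Efemp2* had the most in clones 1 and 2, 17 and 26, in a gene-dense stretch where 10 and 12 of them lay at starts of other genes. *Thbs2* had 6, 14 and 17, and 0 of these lay at a start of another gene.

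Merged over clones, the distal peaks made 105 regions, of which 26 held a peak of every clone (23 with a base under all of them), 41 in clone 2 only, 16 in clone 3 only and 4 in clone 1 only. Of the distal peaks of clones 1, 2 and 3, 92.9%, 52.9% and 72.9% overlapped a peak of another clone. Over the whole lists it was 89.5%, 49.1% and 80.9%, so the many regions of clone 2 only are not particular to the set. Several of the shared regions are promoters of neighbours and not particular to the set either. The one distal region of *Fbln1* common to the clones lay at the start of *Atxn10*, with 176, 306 and 115 ChIP reads, and that of *Fn1* at the start of *Atic*, with 120, 297 and 142. For *Fbln1*, 2 regions just upstream, at -5.00 and -2.52 kb, held 78 and 53 reads in clone 2 only.

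Away from the starts of all genes, 15 merged distal or intronic regions held a peak of every clone, and in 11 of them some bases lay under a peak of all clones. Of these 11, 4 lay at *Fbln2*, 3 at *Sparc*, 2 at *Efemp2* and 1 each at *Fbln5* and *Thbs2*, and reads below are of peaks that touch the common bases. Upstream of *Fbln2*, the region at -9.96 kb (chr6:91200743-91203855) held 145, 138 and 183 ChIP reads, more than the promoter in each clone, or 175 ± 98.1 scaled reads (SD, n = 3 clones). Upstream of *Sparc*, the one at -8.67 kb (chr11:55427785-55429283) held 83, 67 and 138 reads, or 114 ± 84.5 scaled. For *Fbln5* a region at -33.7 kb (chr12:101851018-101853342) held 114, 42 and 94 reads, and in clones 1 and 3 this exceeded the promoter, whereas in clone 2 it did not.

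**Figure D4:**
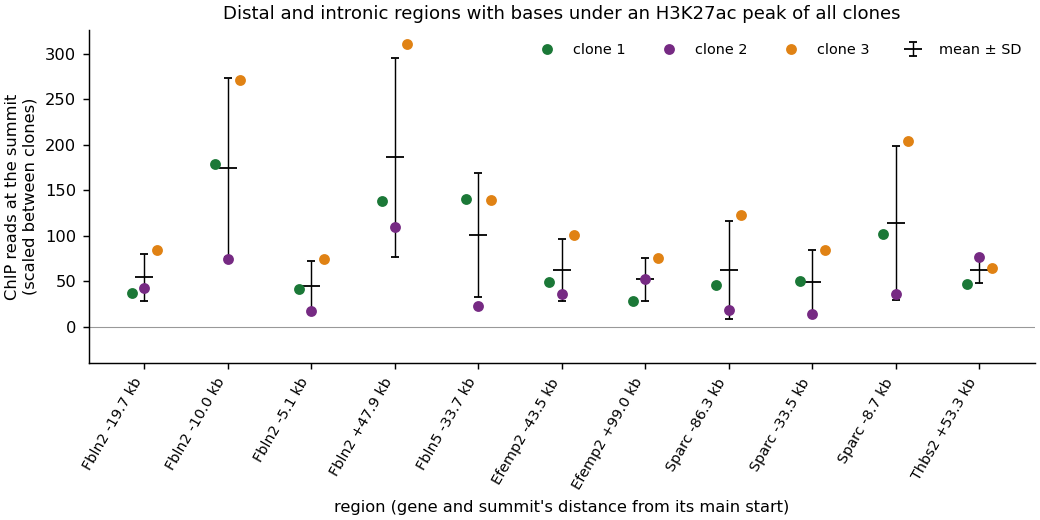
ChIP reads at the summit, scaled between clones (y axis), of the 11 regions away from starts with bases under a peak of every clone, named on the x axis by gene and distance from its main start, with the mean and SD over 3 clones. Clone 3 is highest in 9 of the 11 and clone 2 lowest in 8.

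Clone 3 was highest in 9 of these 11 regions and clone 2 lowest in 8. Over all 5186 such regions of the genome, 83.3% were highest in clone 3 and 72.4% lowest in clone 2, so this order is that of the lists and says nothing particular of these genes. Clone 3 was also the deepest, at an estimated 35.8 M ChIP reads, and its lowest peak held 25 reads. Clones 1 and 2 were alike in depth, at 13.3 and 13.7 M. The part of depth in the order was not tested. In the 4 other regions peaks of 2 clones fell inside or beside a wider peak of the other without overlapping each other. At *Thbs2*, 85.5 kb after its start and beyond its end (chr17:14608023-14610878), a peak of clone 3 with 119 reads held separate peaks of clones 1 and 2, with 16 and 25. A peak of clone 3 with 66 reads 130 kb from the start of *Tnc* (chr4:63916104-63918165) was alike, with 16 and 17 reads at separate places in clones 1 and 2.

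*Tnc* and *Postn*, weak at their promoters, were not without distal peaks. The region at -30.0 kb of *Tnc* (chr4:64076590-64078269) held 47 ChIP reads in clone 1, above the 29 of its promoter, and 114 in clone 3, where no promoter peak was called, and clone 2 had no peak there. *Tnc* had 5, 1 and 4 distal peaks in clones 1, 2 and 3. *Postn* had 2, 1 and 4, and 0 of its 6 distal regions were peaked in all clones.

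The joined domains of each clone were ordered by how many bases their peaks cover, so that a rank of 1% is high and one of 90% is low. Those with a domain in the top 5% numbered 3 in clone 1 (5.55% of all genes), 4 in clone 2 (10.8%) and 4 in clone 3 (5.02%), and *Fbln2*, *Efemp2* and *Sparc* were there in every clone (2.45% of all genes). With peaks joined up to 5 kb apart, or after dropping peaks with a -log10 q under 5, *Sparc* alone was left, beside 1.86% and 1.67% of all genes. Joining up to 20 kb left *Efemp2* and *Sparc*.

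**Figure D5:**
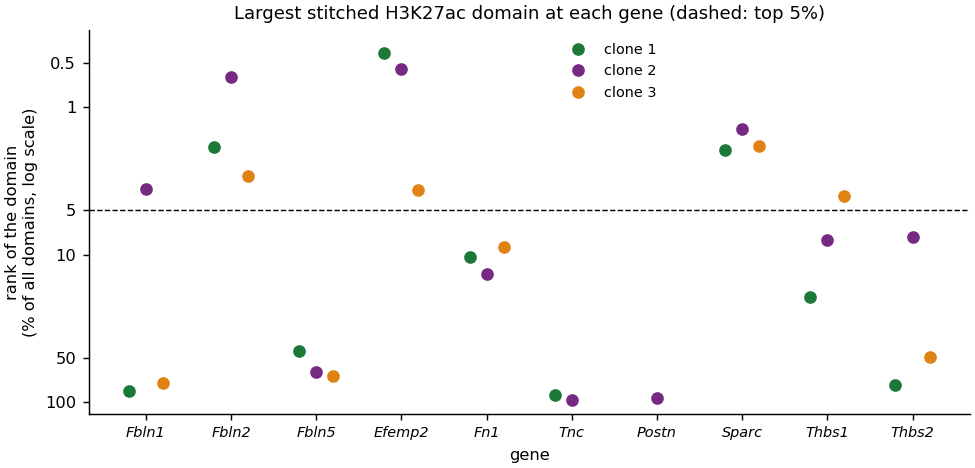
Rank of the largest stitched domain that overlaps each gene or its promoter peaks, as percent of all domains of the clone (y axis, log scale, highest ranks at the top), with the top 5% dashed. *Fbln2*, *Efemp2* and *Sparc* lie above the line in every clone, *Fbln1* in clone 2 only and *Thbs1* in clone 3 only; genes without a point had no peak there.

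*Sparc* ranked evenly, at 1.94%, 1.41% and 1.84% of the domains of clones 1, 2 and 3, in domains of 15.4, 74.8 and 24.5 kb. In clone 2 the domain also held starts of *Atox1* and *G3bp1*. *Fbln2* ranked at 1.85%, 0.624% and 2.93%, in domains of 26.9, 84.4 and 21.2 kb that held no start of another protein-coding gene. *Efemp2* ranked at 0.426%, 0.547% and 3.62%, but its domains of 68.0, 73.7 and 27.9 kb were shared with *Fosl1*, *Ccdc85b*, *Fibp* and *Ctsw* in every clone and with *Cfl1* and others in clones 1 and 2, so the rank is that of the neighbourhood. The mark cannot be assigned to *Efemp2* alone there.

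The domain of *Fbln1* changed most between clones. It ranked at 3.58% in clone 2, where 12 peaks inside the gene joined into 30.4 kb without the promoter peak. In clone 1 it was the promoter peak alone, 0.461 kb long, at 84.7%. In clone 3 it was 2 intronic peaks without the promoter peak, 1.14 kb long, at 74.1%. The ranks are thus not of the same stretch. *Thbs1* ranked at 19.3%, 7.93% and 3.98%, and *Thbs2* at 76.7%, 7.59% and 49.5%. *Fn1*, with the strongest promoter, ranked at 10.4%, 13.4% and 8.90% on a domain that was its wide promoter peak and, in clone 2, 3 more peaks. *Fbln5* stayed between 45.2% and 66.9%. *Tnc* ranked at 89.2% and 96.4% in clones 1 and 2 and *Postn* at 93.6% in clone 2.

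*Fbln1* lies 249 kb from *Wnt7b* and 5.19 Mb from *Pdgfb*, the genes that the study followed in the same interval. Those 2 genes had a promoter peak in clone 2 only, and *Fbln1* in every clone. The study reports that clones derived from the tumours still expressed *Wnt7b*, at a lower level, while *Pdgfb* was barely detected. A missing promoter peak here is therefore not read as a silent gene. For *Fbln1* the study saw no preference for either allele in its expression. The study describes a gain of chromosome 15 in the cell lines used for ChIP-seq. The median control background at summits of chromosome 15 was 1.35, 1.35 and 1.43 times that of the other autosomes in clones 1, 2 and 3. The control behind the list of clone 2 is not given in the sources used here, so its value may not measure clone 2. At the *Fbln1* promoter it was 1.33, 1.42 and 1.12 times that of summits on other autosomes. The reads of *Fbln1* given above are not corrected for this, and its share in them was not tested.

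Motifs were read as letters only. The GC box was found in 8 of the 14 RefSeq promoters of the genes that have an entry, those of *Fbln1*, *Fbln2*, *Fbln5*, *Efemp2* and *Tnc*, beside 35.6% of all promoters of this length. The TATA box was found in 4, those of *Postn*, *Thbs2* and *Tnc*, beside 13.6%, and the CCAAT box in 3, of *Fbln5*, *Postn* and *Thbs2*, beside 37.4%. The TATA match began 26 bases before the start at *Postn*, 126 at *Thbs2*, and 126 or 205 at *Tnc*, depending on the start. The E-box CACCTG was found in that of *Sparc* alone, beside 20.2%, and AP-1 and TEAD sites in 0 of the 14, beside 7.81% and 14.7%. Several of the 14 overlap, since starts of a gene can lie close together.

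At the 139 distal and intronic regions away from starts, an AP-1 site lay within 300 bases around the summit in 20, or 14.4%, beside 9.46%, 11.3% and 11.3% of such summits in all of clones 1, 2 and 3. In the 11 regions with bases common to the clones it was found in 0, and in the 79 of clone 2 only in 14. The TEAD site was found in 16 of the 139, or 11.5%, beside 17.1%, 16.6% and 17.3%. The SMAD site was found in 1, the *Sparc* intron printed above, beside 0.280%, 0.208% and 0.283%. The window at -9.96 kb of *Fbln2* holds a CACCTG match and that at 47.9 kb none of the motifs.

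Among 35 relatives and partners (other members of the families, elastic fibre genes and other matricellular genes), fewer were marked. A promoter peak was found for 14, 20 and 9 of them in clones 1, 2 and 3, for 9 in all clones (25.7%, beside 46.5% of all genes) and for 14 in none. The 4 further members of the fibulin family, *Efemp1*, *Fbln7*, *Hmcn1* and *Hmcn2*, had one in clone 2 only, with 24, 62, 18 and 41 ChIP reads. The tenascins *Tnr*, *Tnxb* and *Tnn* had 0 in any clone, and among the other thrombospondins *Thbs3* was marked throughout, with 228, 282 and 149 reads in clones 1, 2 and 3.

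Of the CCN family, matricellular proteins that bind integrins, 4 of 6 had a promoter peak in every clone. *Cyr61* held 98, 356 and 101 ChIP reads in clones 1, 2 and 3, *Wisp1* 145, 216 and 161, *Ctgf* 24, 151 and 45, and *Nov* 38, 97 and 36. Among 9 partners in elastic fibres, the cross-linking enzymes *Lox* (178, 350 and 97 reads) and *Loxl1* (157, 307 and 79) and the latent TGF-beta binding protein *Ltbp4* (63, 97 and 37) were marked in every clone, while *Eln*, elastin itself, and *Mfap4* and *Mfap5* had no promoter peak in any. *Fstl1*, of the SPARC family, held 53, 208 and 71 reads, and *Smoc1*, *Smoc2*, *Spock1*, *Spock2* and *Spock3* had none.

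The cells are labelled only by strain and genotype, so markers were read the same way. Over all genes 49.8%, 56.9% and 48.1% had a promoter peak in clones 1, 2 and 3, and 42.6% had none in any clone. Of 10 mesenchymal markers, 9, 9 and 7 had a promoter peak in clones 1, 2 and 3, and *Vim*, *Cdh2*, *Zeb1*, *Twist1*, *Prrx1* and *Pdgfrb* had one in every clone. *Col1a1*, *Col1a2* and *Pdgfra* had none in clone 3, and *Col3a1* had one in clone 3 only. Of 10 epithelial markers, 2, 2 and 1 had one, with *Krt5*, *Krt8*, *Krt17*, *Krt18*, *Trp63*, *Cdh1* and *Epcam* at 0 peaks in every clone and *Cdh3* peaked in all. *Trp63* and *Cdh1* did carry body peaks in each clone. Endothelial markers (*Pecam1*, *Cdh5*, *Kdr*) had 0 of 3 in any clone, and of leukocyte markers *Ptprc* had none, *Cd68* had a peak in clones 1 and 2 and *Spi1* in clone 2. Dermal papilla markers had 1, 2 and 1 of 4 and melanocyte markers 1, 1 and 1 of 3, with *Sox2*, *Lef1*, *Tyr* and *Dct* at 0. Most of the epithelial markers thus lacked a promoter peak in these lists, and the part of other cell types in the values of the matrix genes was not tested.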

How the data were processed

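Peak lists of 3 clones were used, from 7 libraries (4 H3K27-Ac, 3 IgG). Per the submitters' processing notes the reads were mapped to GRCm38 with Bowtie2 (version not given) and peaks called with MACS2 2.1.1. The authors called peaks per clone, on the 2 pooled libraries of clone 3. A filter against allelic mapping bias is named in the peaks of clones 1 and 2 but not in those of clone 3. As deposited, fold enrichment is the ratio, at each summit, of ChIP reads (scaled to the control library) plus 1 to local background plus 1, and p and q are deposited on a −log10 scale. The control behind the list of clone 2 is not given in the sources used here.

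Python 3.11.15 with numpy 2.4.6, pandas 2.3.3, scipy 1.17.1, matplotlib 3.10.9 and pysam 0.24.0 was used. Because p is a Poisson tail, it and the fold enrichment together give the ChIP reads and the background; 100% of peaks gave whole reads, to within 0.00104 read, and 100% of 3983 simulated peaks were returned correctly. Total reads were estimated from the background floor, assuming the mouse genome size that MACS2 takes by default. Genes and starts are those of GENCODE M21, and promoter sequences and the genome those of RefSeq GRCm38.p6. Fn1 and Thbs1 promoters are not printed here. The main start of a gene is that of its APPRIS principal transcript. Overlap was at least 1 bp, and coordinates count from 1. That a region shared by the clones must hold a base under a peak of each was set after the values were seen. With 1 condition no test between groups was made. Peaks assigned to genes were checked against a plain loop on 200 genes. The members, lists, motifs and named genes (all members, and relatives with a promoter peak in every clone) were chosen with earlier results of these data known. *Apol7d*, *Gm13986*, *Atic*, *Atxn10* and the genes of shared domains were named after their values were seen. Alternatives were other windows, reach and joining distances, stricter or equal lists, other starts, rankings and scalings, and leaving out each clone.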

Additional observations from a re-analysis of the deposited data

How the results depend on the processing

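Of 38 alternatives to 5 summary values, 29 left the value within 1.5 times (for the median spread, within 1 SD over the 8 genes) and 9 moved it. The count of genes with a promoter peak in every clone was 3 where the peak had to cover a start base, and between 7 and 9 otherwise; it ranged from 8 to 9 without 1 clone. Body peaks per clone fell from 26.7 to 14.7 with a −log10 q of at least 5 and to 14.3 with equal numbers of peaks, and ranged from 9.5 (without clone 2) to 36.0 (without clone 1), so that clone 2 decides this mean. Distal peaks per clone rose from 67.3 to 103 within 200 kb, and ranged from 57.5 to 73.0 without 1 clone. Genes with a top domain in every clone numbered 1 with joining at 5 kb and 1 with a −log10 q of at least 5, and 3 without any 1 clone. The median ratio between clones was 5.51 when reads were scaled by estimated totals, where that of all genes was 7.23, so that the set then differed less between clones than all genes and not more; without 1 clone it ranged from 1.33 to 1.62. The cause was not tested. Fold enrichment gave 1.88 and sums over promoter peaks 1.71. No paired analysis was possible because there is 1 condition. The threshold of each list limits what an absent peak means, since weak sites under it are not listed. It did not follow depth, as the deepest clone, 3, had the highest lowest peak, at 25 reads.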
